A study of Mus musculus with 18 samples.

Results

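Btg2, a gene that encodes an antiproliferative protein, was measured on 2-colour arrays in murine erythroleukemia (MEL) cells up to day 6 of induction. It was represented by 1 probe (M000276_01) among 5974 genes named by a single symbol on the array. The gene was chosen by its own ratios across all 18 arrays, which showed it higher late in the course, so its values are given as a description and carry no test. MEL cells are an established mouse line of virus-transformed erythroid precursors that stop dividing and make hemoglobin when hexamethylene bisacetamide (HMBA) is added.

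Each array paired RNA from cells that had been in HMBA for some days with RNA from uninduced control cells, and arrays of day 0 carried uninduced RNA in both channels. Series A had 1 array on each of days 0, 1, 2, 3, 4, 5 and 6, and series B 1 array on each of days 0, 2, 3, 4, 5 and 6. Another 5 arrays, also of series B, carried SD in their titles, for days 0, 2, 3, 5 and 6. On the SD arrays of days 2, 3, 5 and 6 the induced and control RNA had changed channels. Every day thus had n = 2 arrays outside the SD set, except day 1 with n = 1. The labels named no clone, no dose of HMBA and no separate cultures, so spread between arrays may be technical. Values are log2 ratios minus the median of their array. Which dye marked which RNA is not given in the sources used here, and the direction is called likely induced over control because the alpha-globin probe Hba-ps3 reached 6.38 in cells that are known to make hemoglobin. That probe is therefore no independent evidence of direction. No spot brightness was used, so the number of arrays limits the precision.

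Btg2 belongs to the BTG and TOB family of small adaptor proteins. It recruits the CCR4-NOT deadenylase to messenger RNA bound by poly(A)-binding protein, which speeds the shortening of poly(A) tails. It is a target of p53, was first found as an immediate early gene under the names TIS21 and Pc3, binds the arginine methyltransferase Prmt1 and holds back the passage from G1 into S phase. In several lineages it marks progenitors that are about to leave the cell cycle.

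The start of the gene is shown because it is the stretch from which the measured RNA begins, and Btg2 is known as a gene that signals and p53 switch on. The RefSeq window runs from 250 bases before to 50 bases after the start of the gene (GRCm38.p6, chr1:134079106-134079405, minus strand), written 5′ to 3′ along the gene. Capitals mark the cAMP response element TGACGTCA, the GC box GGGCGG and the CCAAT box.
Btg2: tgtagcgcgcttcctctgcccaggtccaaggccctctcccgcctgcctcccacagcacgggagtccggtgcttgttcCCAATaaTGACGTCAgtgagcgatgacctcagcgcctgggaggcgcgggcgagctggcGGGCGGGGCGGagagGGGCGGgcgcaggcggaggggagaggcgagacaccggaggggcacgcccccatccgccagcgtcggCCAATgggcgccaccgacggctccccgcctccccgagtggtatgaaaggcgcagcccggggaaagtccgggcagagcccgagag

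The cAMP response element lay at position -166 from the start and was found in 1.79% of 32851 promoter windows of the same length. GC boxes began at -115, -110 and -100, of which the first 2 overlap by their end base, and 35.7% of windows held at least 1. CCAAT stood at -173 and -34, and 37.4% of windows held it. On both strands the TATA box TATAAA, the GATA sequences AGATAA and TGATAA and the CACCC box CACCC had 0 matches in the Btg2 window. They were found in 13.6%, 11.2%, 9.05% and 57.5% of all windows. The strict p53 half-site RRRCWWGYYY (R for A or G, W for A or T, Y for C or T) also had 0 matches, against 8.36%. A p53 site that departs from those letters would be missed, so the 0 does not show that the window lacks one. The window was 72.0% G and C, compared with a median of 52.7% over all windows. These are matches of letters, and no array measured binding at them.

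Btg2 was highest on day 5 in both series, and its early arrays took no common direction from day 0. On day 0 its centred log2 ratio was 0.28 in series A and -0.86 in series B. On day 1 the array of series A read 0.58. The pair of day 2 arrays went opposite ways, with -2.07 in series A and 1.74 in series B. On day 3 the array of series B read 0.45, and that of series A held no value. The late arrays were all above both day 0 arrays. Day 4 gave 2.13 in series A and 0.69 in series B. Day 5 gave 3.19 and 4.23, and day 6 gave 0.64 and 3.32. Day 5 was the day on which both series were high, while on day 6 series A had returned close to its day 0 and day 1 values and series B had not.

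**Figure D1:**
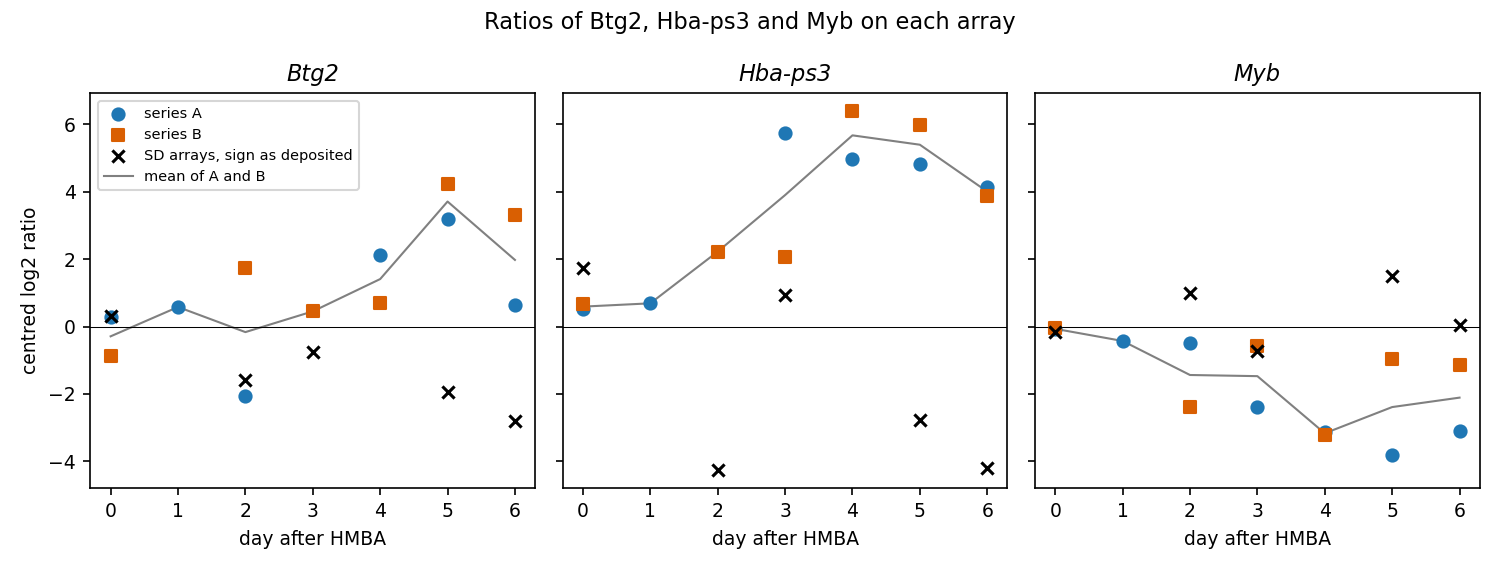
Centred log2 ratio (vertical axis) of Btg2, Hba-ps3 and Myb on each array by day after HMBA, with series A as circles, series B as squares, SD arrays with their deposited sign as crosses and the mean of A and B as a line. Btg2 is highest on day 5, at 3.19 and 4.23, and its SD values lie on the other side of 0 from those of series B on all 5 days.

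Ordered by day mean, Btg2 stood at 3.71 on day 5 (SD 0.74, n = 2), 1.98 on day 6 (SD 1.89, n = 2), 1.41 on day 4 (SD 1.02, n = 2), 0.58 on day 1, 0.45 on day 3, -0.16 on day 2 (SD 2.70, n = 2) and -0.29 on day 0 (SD 0.81, n = 2). The arrays of day 5 overlapped those of day 6, and day 6 overlapped day 4. Day 4 lay above the lone values of days 1 and 3, but the day 2 arrays spanned 3.82 log2 and overlapped every day other than day 5. The difference between the 2 series on day 2 was thus about as large as the whole change of the day means from day 0 to day 5, which was 4.00 log2 or 16.0-fold.

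Set against the other probes of the same array, Btg2 moved from the middle of the distribution to its upper end. On day 0 it was above 62.7% of measured probes in series A and 28.9% in series B. On day 2 of series A it was above only 4.87% of probes, and on day 2 of series B above 91.2%. On day 4 it was above 95.1% in series A and 70.0% in series B. On day 5 it was the 14th highest of 2804 probes in series A and the 12th highest of 2453 in series B. By day 6 it was the 12th highest of 2302 in series B, but above 73.4% of 4873 probes in series A. The place of the gene on an array does not depend on the spread of that array's ratios, which was wider in series B (median absolute deviation 1.31 to 1.76) than in series A (0.88 to 1.41).

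**Figure D2:**
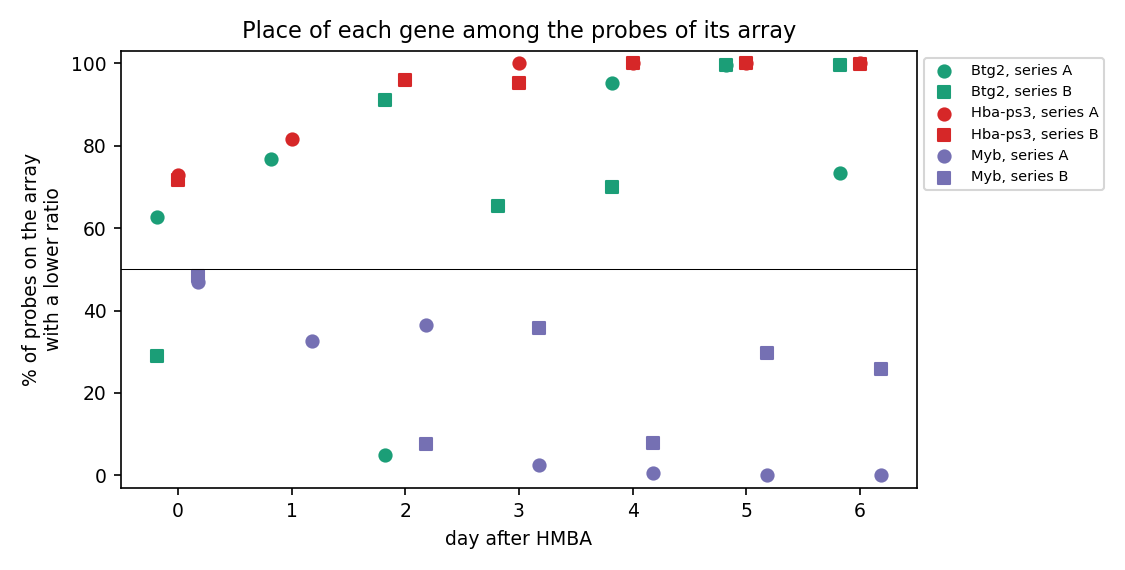
Share of measured probes on the same array with a lower ratio than Btg2, Hba-ps3 or Myb (vertical axis, percent) by day after HMBA, for series A (circles) and series B (squares). Btg2 reaches 99.5% on day 5 in both series and falls to 4.87% on day 2 of series A.

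The mean of days 4, 5 and 6 exceeded day 0 by 2.65 log2 for Btg2 (SE 1.00), a 6.30-fold difference and the fourth highest of 1211 probes. The gene entered with these values known, so that place is a description. Over the 633 probes with all 6 late and both day 0 values, 3.79% had every late array above both day 0 arrays, as Btg2 did, and 2.21% had every late array below them. Days 1 and 2 differed from day 0 by 0.50 log2 (SE 1.14). Leaving out the B array of day 2 gave -0.46 and leaving out the A array 1.45. Leaving out the day 0 array of series A gave 1.07 and that of series B -0.07, so no early direction can be given. From the early to the late days, a comparison that uses no day 0 array, Btg2 was 2.16 log2 higher (SE 0.90), or 1.20 when the low A array of day 2 was left out and 3.11 when the B array was.

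Within series A the late mean was 1.98 and the day 0 value 0.28, a difference of 1.70 log2. Within series B they were 2.74 and -0.86, a difference of 3.60 log2. The gene was therefore higher late in each series, with the difference in series B drawing both on a higher late mean and on a lower day 0 value.

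The SD arrays went against the series B arrays for Btg2. Their labels exchange the channels, and their sign had already been turned before deposit. On each SD array 100% of the values above 2 were minus the log2 of a ratio with 3 decimals (within 0.02 of the last decimal), and so were 2.4 to 11.1% on the other 13 arrays, whose values under -2 were plain log2 of such ratios in 100% of cases. Taken as labelled, deposited SD and B values therefore run in the same direction, yet Btg2 had opposite signs on every day. For days 0, 2, 3, 5 and 6 they read 0.33, -1.59, -0.74, -1.93 and -2.79. The B arrays of those days read -0.86, 1.74, 0.45, 4.23 and 3.32. Among 678 probes measured on all 8 arrays of days 2, 3, 5 and 6, 2.65% had opposite signs on all 4 days. The mean of B and SD as deposited was -0.27, 0.08, -0.15, 1.15 and 0.26 for the same days, so as labelled only day 5 stood clear of its day 0 value by more than 1 log2. With the SD sign turned the means were -0.59, 1.67, 0.60, 3.08 and 3.05, and days 5 and 6 were level. Over all probes the SD and B arrays of a day correlated positively (r = 0.42 to 0.58 over 1311 to 2292 probes, which are not independent replicates), which the Btg2 probe did not follow. Hba-ps3 had opposite signs on days 2, 5 and 6 and the same sign on days 0 and 3, and so did Myb. Hba-ps3, which called the direction of the other arrays, read -4.25, -2.78 and -4.20 on the SD arrays of days 2, 5 and 6. By that rule those arrays, as deposited, likely run control over induced, while that of day 3 (0.94) does not. The correlation over all probes was positive, however. Which sign of the SD arrays runs from control to induced cells is thus not settled, and both are given. With SD arrays averaged in at their deposited sign the late difference of Btg2 was 1.34 log2, and with their sign turned it was 2.29.

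The alpha-globin probe Hba-ps3, a readout of hemoglobin synthesis that cannot separate near-identical alpha-globin transcripts, reached its height before Btg2 did. For days 0, 1, 3, 4, 5 and 6 of series A it read 0.51, 0.69, 5.73, 4.96, 4.82 and 4.13, with no value for day 2. For days 0, 2, 3, 4, 5 and 6 of series B it read 0.67, 2.22, 2.07, 6.38, 5.97 and 3.87. Its late difference from day 0 was 4.43 log2 (SE 0.89). Its highest array was day 3 in series A and day 4 in series B, while that of Btg2 was day 5 in both.

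The product of Myb, a transcription factor, holds immature erythroid cells in proliferation, and its loss is known to accompany MEL differentiation. For days 0 to 6 of series A its ratio was -0.08, -0.43, -0.49, -2.37, -3.13, -3.81 and -3.09. For days 0, 2, 3, 4, 5 and 6 of series B it was -0.06, -2.39, -0.57, -3.21, -0.97 and -1.13. Every late array lay below both day 0 arrays, with a late difference of -2.49 log2 (SE 0.88), or -3.26 within series A and -1.71 within series B. The lowest array was day 5 in series A and day 4 in series B.

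As a share of the largest change of its day means, Btg2 was at 3.14% on day 2, 18.5% on day 3 and 42.5% on day 4 before it reached 100% on day 5. Hba-ps3 was at 32.1% on day 2, 65.1% on day 3 and 100% on day 4, and stood at 94.5% on day 5. Myb, whose change was downward, was at 44.2% on day 2, 45.3% on day 3 and 100% on day 4. In day means, the largest change of Btg2 came 1 day after that of the other genes, and on day 6 all 3 had moved back, to 56.7%, 67.2% and 65.9%. Series A and B differed on day 3 by 3.66 log2 for Hba-ps3 and by -1.81 for Myb, and the day 3 mean of Btg2 rests on 1 array. With n = 2 a day, a lag of 1 day was not tested. On day 2 the series stood in opposite order for Btg2 and Myb, with series B above series A for Btg2 and below it for Myb.

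**Figure D3:**
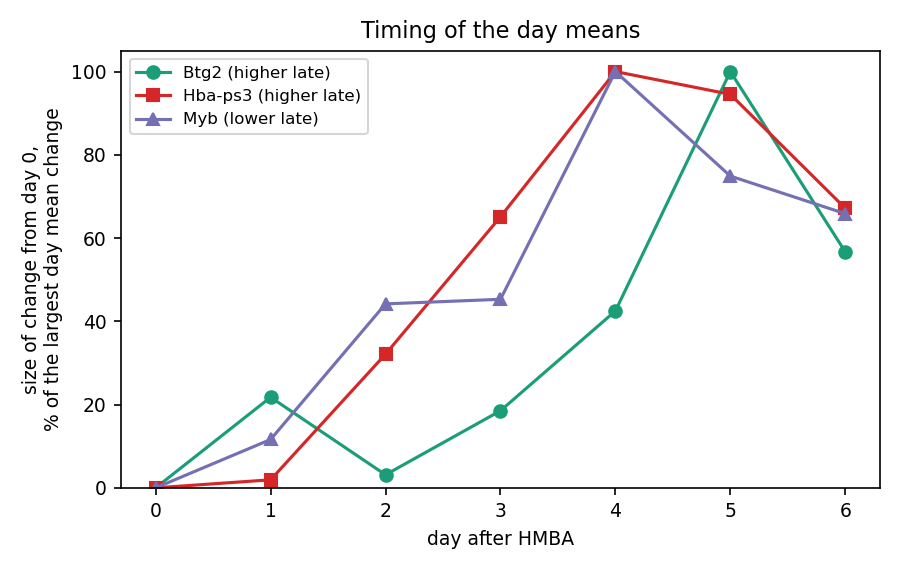
Size of the change of the day mean from day 0, as a percentage of the gene's largest day mean change (vertical axis), by day after HMBA for Btg2, Hba-ps3 and Myb. Btg2 reaches 42.5% on day 4 and peaks on day 5, while Hba-ps3 and Myb peak on day 4; the Btg2 point of day 2 averages values of -2.07 and 1.74.

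Of the other family members, which share the domain that binds the deadenylase, 5 were on the array, and of the 3 with a late difference 1 was above 0 and 2 below, at sizes under that of Btg2. Limma could test 2 of them and called 0. Its late calls, at an adjusted p under 0.05, came to 0 percent of all 1211 probes tested, while 2.31% passed that level before adjustment. Btg1, the closest relative of Btg2, read 0.28 and -0.40 on day 0, and -1.31, -1.89, -0.84, -0.43, 0.99 and -2.40 on days 4 to 6 of series A and then of series B. It was thus below both day 0 arrays on 5 of 6 late arrays, with a late difference of -0.92 log2 (SE 0.88, adjusted p = 0.9999 in limma). Btg3 had a late difference of -0.16 (SE 0.79, adjusted p = 0.9999 in limma), with 0.72 and 0.76 on day 4 and -0.29 and -1.19 on day 6. Whether Btg2 differed from Btg1 or Btg3 was not tested.

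Tob2 had too few arrays to test and was 0.59 log2 higher late against 1 day 0 array. All 4 late arrays, at 0.90 to 1.62, were above that day 0 array at 0.68, but the arrays of day 3, at 1.46 and 1.93, lay within or above the range of the late ones. Its day 2 values, 0.11 and 2.61, split between the series in the same order as those of Btg2 and Btg1, with series B above series A, as did those of Btg3 (-2.14 and -0.14), whereas Tob1 had the reverse order (0.95 and -1.44). Tob1 had values on 5 arrays, none of day 0, and Btg4 on 1.

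**Figure D4:**
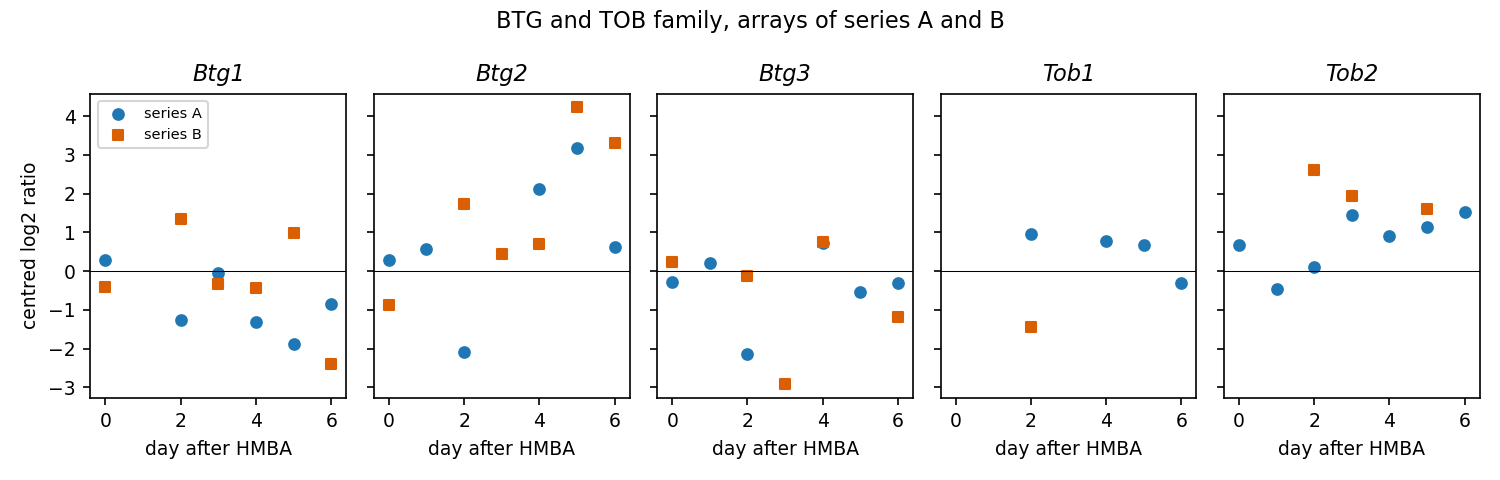
Centred log2 ratio (vertical axis) of Btg1, Btg2, Btg3, Tob1 and Tob2 by day after HMBA, series A as circles and series B as squares. Btg2 rises to 4.23 on day 5, whereas Btg1 lies between -2.40 and 0.99 on the late arrays.

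Genes of the machinery that Btg2 acts through had no late call, as had none of the 1211 probes tested. Of 18 listed symbols for CCR4-NOT subunits and poly(A) tail factors 5 had a probe, 3 were tested late and limma called 0. Cnot7, the catalytic subunit that BTG proteins bind, was 0.93 log2 higher late against 1 day 0 array and was not tested. Cnot9, a subunit of the complex, differed by 0.24 (SE 0.67, adjusted p = 0.9999 in limma) and Cnot4, a ubiquitin ligase, by -0.11 (SE 0.68, adjusted p = 0.9999 in limma). Pabpc1, the cytoplasmic poly(A)-binding protein, had day 0, early and late means of -2.86, 0.0052 and -1.27, and the nuclear Pabpn1 -1.37, 0.21 and -1.004.

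All 4 genes of the CCR4-NOT and poly(A) list that could be compared had early values above day 0, as had 1665 of 3108 probes. Their median was 1.33 log2 against 0.08, from 3.08 for Pabpc1 to 0.26 for Cnot9. Limma called 0 percent of 1060 probes early (37 at an unadjusted p under 0.05). From early to late all 4 differences were below 0, as were 1131 of 2261 probes, with a median of -0.83 log2 against -0.00066. The size lay in Pabpn1 (-1.70) and Pabpc1 (-1.49), while Cnot7 (-0.16) and Cnot9 (-0.02) were near 0. Limma called 0 percent of 1050 probes (67 unadjusted). Without centring 2 of the 4 were above 0 and 2 below (median -0.61), and 1 was above under quantile normalization and under equal spread of the arrays. Dropping 1 late array at a time moved that median to -0.14 (B, day 6), -0.16 (B, day 4), -1.31 (A, day 5) or -1.70 (A, day 4). Over that interval Btg2 differed by 2.16 log2. Of the arginine methyltransferases, Prmt1, which Btg2 binds, differed late by -0.57 log2 against 1 day 0 array and was not tested. Carm1 was at 1.64 (SE 0.88, adjusted p = 0.9999 in limma), Prmt2 at -0.36 and Prmt5 at 0.05.

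Other p53 targets did not share a late direction. Of 21 genes measured from that list 7 had a late value, with 3 higher and 4 lower and a median of -0.06 log2, against 59.4% higher and a median of 0.16 over 2615 probes. Limma tested 3 and called 0. Among those 7, Trp53inp1, a stress protein of p53 and autophagy, had the late difference nearest to that of Btg2, at 0.97 (SE 0.96). Its mean was already 1.24 on day 0 and was 2.20 on the late arrays, which lay above both day 0 arrays on 5 of 6. Ccng2, a cyclin of arrested cells, was at -0.75 (SE 0.74), Phlda3, an inhibitor of Akt, at -0.55 and Gadd45g, a stress sensor, at 0.48.

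Immediate early genes, the class in which Btg2 was first found, had 13 late values, 8 higher and 5 lower, with a median of 0.40. Limma tested 5 and called 0. Zfp36l2, an RNA-binding protein that also recruits deadenylases, was 1.71 log2 higher on the 4 late arrays that measured it, against 1 day 0 array, and its relative Zfp36l1 was at -1.21, also against 1. The nuclear receptor gene Nr4a1 was at 1.36 and above both day 0 arrays on 4 of 4. Mcl1, a survival protein, was at -1.20 (SE 1.29) against 1 day 0 array. Early, 8 of 18 members were above day 0, with a median of -0.41.

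Among genes of G1 exit 13 had a late value, 6 higher and 7 lower, with a median of -0.02, and limma tested 7 and called 0. Rbl1, the retinoblastoma relative of cycling cells, was at -1.48 against 1 day 0 array, and Cdk4, the kinase of D cyclins, at 1.44 (SE 1.01). The inhibitor gene Cdkn2d was at -0.90 (SE 1.08) against 1 day 0 array, and Ccnd2, a D cyclin, was at 0.81 (SE 1.07). Cyclin D1, which Btg2 is known to hold down, had values on 3 arrays and none of day 0.

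Further genes of growth arrest had 14 late values, 9 higher and 5 lower, with a median of 0.31, and limma tested 8 and called 0. The growth arrest gene Gas1 was at -2.80 against 1 day 0 array and the non-coding host gene Gas5 at -1.86 (SE 1.23, 5 of 5 late arrays below its 1 day 0 array). Pdcd4, a translation inhibitor, was at 1.20 (SE 0.85). The forkhead factor gene Foxo1 was at 1.15 against 1 day 0 array, with 4 of 5 late arrays above it, and was not tested. The late medians of the family, methyltransferase, p53, G1 exit and growth arrest lists changed sign with at least 1 scaling or 1 array left out. Those of the poly(A) and immediate early lists did so only when ratios were set against 0 in place of day 0 (-0.70 and -0.05). The early medians were computed under 1 setting only.

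**Figure D5:**
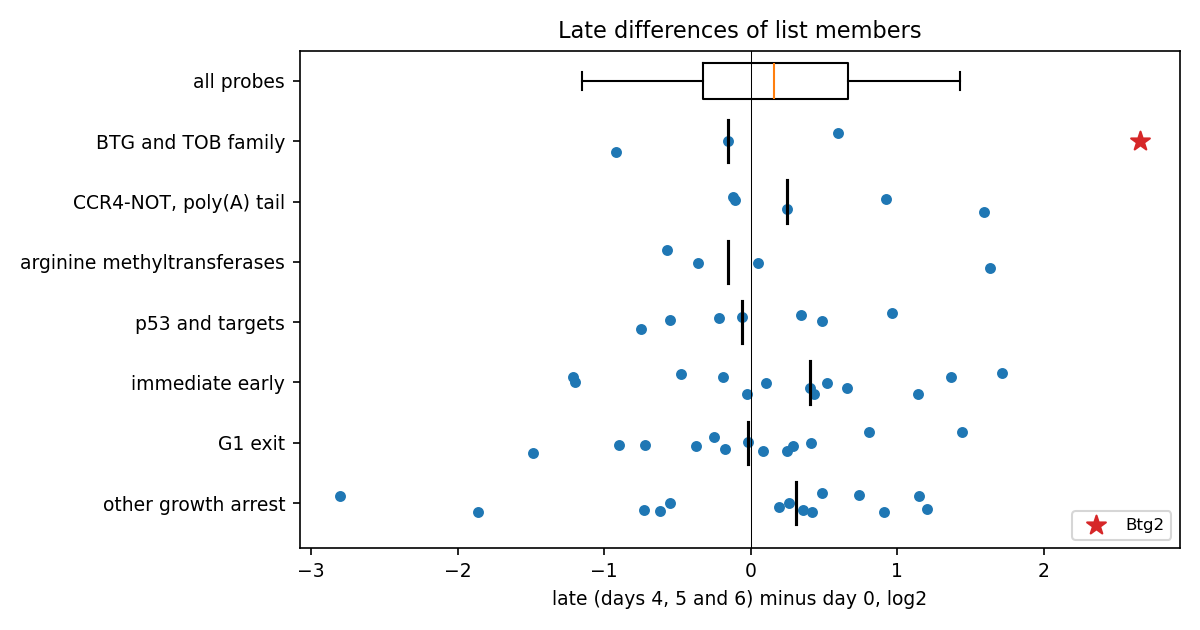
Late minus day 0 difference (horizontal axis, log2) of each member of 7 gene lists with a late value, with a bar at the list median, Btg2 as a star, and all 2615 probes as a box with whiskers from the 5th to the 95th percentile. Btg2 at 2.65 lies above every plotted member, while the list medians lie between -0.16 and 0.40. Btg2 was chosen with its late values known, so its place is a description.

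The probes whose ratios lay nearest to those of Btg2 were Tfec, Grem1, Fmnl1, Zfp28, Casp2 and Lasp1. Nearness was the root mean square difference over the arrays both measured, and it was 0.86, 0.95, 0.96, 1.01, 1.01 and 1.02 log2 over 10 or 11 arrays, against a median of 2.12 over 1078 probes. Hba-ps3 was at 2.41, with a place of 689, and Myb at 3.82. Day 5 had the highest mean for Tfec, a transcription factor of the Mitf family (1.96), Fmnl1, an actin-nucleating formin of blood cells (2.74), Grem1, a secreted antagonist of bone morphogenetic proteins (2.54), and Casp2, a caspase (2.44). Zfp28 was highest on day 2 (2.81) and Lasp1 had no day 5 value. The probes were picked for nearness to Btg2 over these same arrays, so a shared height on day 5 follows in part from that choice. Ratios of these probes were already at 0.67 to 1.07 on day 0 apart from Casp2 (-0.01), so their late differences from day 0 were smaller than that of Btg2, from 0.41 for Tfec to 1.16 for Casp2 among the 5 that had one. By Pearson's r over the same arrays 3 of these 6 stayed among the nearest 6, namely Tfec, Fmnl1 and Casp2 (r = 0.84, 0.85 and 0.87), and all points share the same arrays and control RNA.

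Between 2008 and 4945 of 6868 probes had a ratio on the 13 arrays, and 1221 were tested. All 12 probes for erythroid markers had a ratio on at least 1 of 13 arrays, as had all but 150 of the 6868 probes. Their median was 10.5 arrays, against 2 for 5 macrophage probes (Cd68 had none) and 3.5 each for 8 lymphocyte and 8 granulocyte probes. The median was 5 for 7 mast cell and 8 for 5 megakaryocyte probes, and that over all probes was not computed. A ratio on an array is not a level, so no defining marker could be checked by its amount. The erythroid list holds Hba-ps3, whose ratios were used to call the direction. Late medians were 0.87 log2 over 10 erythroid probes (7 higher, against 59.4% of all probes) and 0.10 over 3 megakaryocyte probes. They were -0.46 over 2 granulocyte and -1.24 over 2 mast cell probes. Their part in the Btg2 ratio was not tested, and in RNA of whole cultures a change in the share of differentiated cells and a change per cell cannot be told apart.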

How the data were processed

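The authors deposited 1 table of log2 ratios for 18 arrays. The scale was read from the values, and array medians ran from -0.15 to 0.70. Neither numerator, background correction nor normalization was given in the sources used here. Probes were named from the platform annotation (6108 with 1 gene symbol, 41 with several, 719 with none). Each array was centred on its median. Day means of the 13 arrays other than SD were fitted with limma 3.58.1 in R 4.3.3, with Benjamini-Hochberg adjustment over all probes that had a value on at least 11 of the 13 arrays and on at least 1 of day 0. Contrasts were late (days 4, 5 and 6) and early (days 1 and 2) against day 0, and late against early. Values of probes under that minimum came from a fit of all probes and carry no p-value. The fit was tested on simulated data. The gene and the lists were chosen with earlier results of these data known. Named were all family, poly(A) and methyltransferase genes, the 4 largest late differences of each other list, and the 6 probes nearest to Btg2. Promoter letters are RefSeq's. Alternatives changed the centring, scaling, filter, SD arrays, baseline, series block and each array.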

Additional observations from a re-analysis of the deposited data

Results flagged for a closer look

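Some ratios on the SD arrays, which entered no comparison of the 13 arrays, were larger in size than any day 0 ratio of the same gene. For Btg2 they were -1.59 on day 2, -1.93 on day 5 and -2.79 on day 6, against at most 0.86 in size on day 0. For Hba-ps3 they were -4.25 on day 2, -2.78 on day 5 and -4.20 on day 6, against at most 1.73. For Myb they were 1.00 on day 2, -0.72 on day 3 and 1.51 on day 5, against at most 0.15. All but the Myb value of day 3 had the opposite sign to the B array of that day.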

How the results depend on the processing

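The late difference of Btg2, a gene chosen with its late values known, was positive under all 9 settings and with each array left out. It ran from 1.34 to 2.89 log2 over the settings and from 2.08 to 3.22 over the 13 arrays left out. Some of these could not alter it. It stayed at 2.65 with the filter changed, with the series block, or without an array of day 1, 2 or 3. The lowest value, 1.34, came with SD arrays averaged in at their deposited sign. Late against early was positive as well, at 1.55 to 2.36 and 1.20 to 3.11. The filter, the baseline and the arrays of days 0 and 3 do not enter that value. Without centring the late median of all probes was 0.48 in place of 0.16, and Btg2 was at 2.89. The early value of Btg2 had no stable sign. It was -0.22 with SD arrays at their deposited sign, and -0.46 to 1.45 with 1 array left out (-0.07 without day 0 of series B). Hba-ps3 had an early value of -1.02 with SD arrays at their deposited sign. Limma's late count of 0 became 309 when ratios were tested against 0, which leaves out the error of the day 0 arrays, and 0 to 1 with 1 array left out, where the 1 was Hba-ps3 without day 3 of either series. With the series letter as a replicate block the late count was 1, again Hba-ps3, and Btg2 was at 2.65. The letters were not taken as a pairing in the fit reported. Differences between A and B correlated from -0.0098 to 0.42 over 15 pairs of days, with a median of 0.27. Part of the difference between the series was thus shared across days, and the fit reported leaves that out. With the block 46 probes had an unadjusted late p under 0.05 in limma, against 28 without it. Early and late against early stayed at 0 calls under every setting run, with 37 and 67 probes at an unadjusted p under 0.05 in the fit reported. Of 460 other values, 458 moved by less than the spread between arrays. The remaining 2 were Hba-ps3 with SD arrays at their deposited sign (early as above, late 2.76). That count is a weak check. For medians the spread was that of a single probe, 1.05 log2, so a median that changed sign still counted as unmoved. Some settings could also not alter a value. Without the day 1 array no early value could be fitted.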

Other observations

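Some further genes of growth arrest lacked the days needed for a late mean and were picked after their values were seen. Cdkn1a, the p21 inhibitor and a p53 target like Btg2, averaged 0.90 log2 over 3 late arrays (-0.15 to 1.65) and read 0.06 on its 1 day 0 array. Cdkn2b, the p15 inhibitor of D cyclin kinases, read 1.24 and 1.96 on its late arrays and -0.24 on its 1 day 0 array. Gadd45b, a stress sensor, averaged -0.72 over 3 late arrays, all above both of its day 0 arrays, which averaged -1.92. All of these were higher late, but members of the same lists that also lacked those days went lower. Mxd1 read -0.12 and 0.12 on its late arrays and 0.77 on its 1 day 0 array. Rb1 read -1.38 and -0.23 late and -0.18 on its 1 day 0 array. These genes thus show no shared late direction.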
